A study of Homo sapiens with 4 samples.

Results

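The anaphase-promoting complex or cyclosome (APC/C), its regulators and the spindle assembly checkpoint were examined as a set of 32 genes. The data were RNA-seq of SK-N-BE(2) cells, a human neuroblastoma line, with a scrambled shRNA or with shRNA against SAPCD2. The genes were chosen by function, with earlier results of these data known. They were matched by GENCODE symbol to the Ensembl identifiers of the count table. All 32 were found among its 64252 genes, and all 32 passed the filter on low counts that left 18779 genes for testing. They comprise 14 core subunits of the complex, 2 coactivators, 2 ubiquitin-conjugating enzymes, the inhibitor FBXO5, 8 checkpoint genes, MAD2L2, and 4 genes for substrates and the protease separase.

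The study asked what SAPCD2 does in neuroblastoma cells, and RNA-seq compared cells transduced with a lentivirus for scrambled shRNA (sh-Scb) with cells carrying shRNA against SAPCD2 (sh-SAPCD2). Each group had 2 libraries, and both groups went through the same transduction and puromycin selection. The labels do not say which hairpin was used, and a heat map of the study names sh-SAPCD2 #1 for the RNA-seq columns. Nothing in the sources states that the replicates came from separate cultures, so the p-values below measure only the spread between these libraries, which may be technical.

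The APC/C is a large ubiquitin ligase that marks securin and the B-type cyclins for the proteasome, which frees separase to open the cohesin rings and lets the cell leave mitosis. The spindle checkpoint holds it back: at kinetochores without microtubules, MAD2 is converted to a form that joins BUBR1 and BUB3 in binding CDC20, the coactivator that brings substrates to the complex. In bulk RNA, fewer cells in mitosis and less RNA per mitotic cell cannot be told apart.

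SAPCD2 itself stood at 83.4 and 82.1 CPM (counts relative to the TMM-scaled library total) in the sh-Scb libraries and at 35.3 and 52.4 CPM in the sh-SAPCD2 libraries, replicates 1 and 2 in that order as throughout. The groups did not overlap, and the mean with the hairpin was 53.0% of the control mean (log2 fold change −0.91, SE 0.193, edgeR adjusted p = 0.0206, and 0.0749 without the filter on low counts). Total counts ranged from 25347900 to 31850997, and 3 counts, taken as the smallest amount that this depth can show, equaled 0.0954 to 0.118 CPM, which covers counting error only. The 8 adrenergic neuroblastoma markers were each above 1 CPM in every library, with sums of 2073.8 to 2135.5 CPM in sh-Scb and 1689.1 to 2278.1 CPM in sh-SAPCD2. Of 12 markers of other cell types, 7 stayed under 1 CPM in every library, CD3E, KRT5 and SOX10 were at 0, and the sums were 47.2 to 48.9 CPM in sh-Scb and 43.8 to 47.4 CPM in sh-SAPCD2. DCN (21.8 to 30.8 CPM) and PTPRC (8.93 to 12.3 CPM) were the most abundant of these.

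Promoters of genes of late cell division often hold a cell cycle genes homology region (CHR) near CCAAT boxes, where a repressor complex in resting cells and activators in G2 and mitosis bind. RefSeq promoter windows (GRCh38.p14, 250 bases before to 50 after a start site) were found for 29 of the 32 genes and searched on both strands for the CHR core TTTGAA and its variant form written as TTCGAA, for the CCAAT box, and for the E2F word TTTCCCGC, with the variants TTTCGCGC, then TTTGCCGC, and lastly TTTGGCGC. UBE2C, TTK and BUB3 had no window. Shown first are CDC20 on chr1:43358731-43359030 (plus strand), CCNB2 on chr15:59104896-59105195 (plus), MAD2L1 on chr4:120066799-120067098 (minus) and BUB1 on chr2:110678014-110678313 (minus), because each held both words and its gene fell, and last is ANAPC15 on chr11:72112646-72112945 (minus), the gene with the largest fall of the set and none of the words. Capitals mark CHR and CCAAT words, read 5′ to 3′ along the gene.
CDC20: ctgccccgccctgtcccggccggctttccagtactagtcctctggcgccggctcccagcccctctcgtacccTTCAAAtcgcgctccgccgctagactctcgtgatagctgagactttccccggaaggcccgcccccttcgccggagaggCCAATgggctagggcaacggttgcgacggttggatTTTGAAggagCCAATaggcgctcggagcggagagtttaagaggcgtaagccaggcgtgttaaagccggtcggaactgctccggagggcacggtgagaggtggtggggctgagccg
CCNB2: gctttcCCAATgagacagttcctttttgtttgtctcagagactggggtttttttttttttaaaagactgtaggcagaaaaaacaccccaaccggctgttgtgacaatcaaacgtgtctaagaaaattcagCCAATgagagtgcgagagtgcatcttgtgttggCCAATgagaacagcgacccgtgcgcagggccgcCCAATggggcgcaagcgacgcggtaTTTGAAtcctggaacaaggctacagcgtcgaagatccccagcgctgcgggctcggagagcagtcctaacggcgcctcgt
MAD2L1: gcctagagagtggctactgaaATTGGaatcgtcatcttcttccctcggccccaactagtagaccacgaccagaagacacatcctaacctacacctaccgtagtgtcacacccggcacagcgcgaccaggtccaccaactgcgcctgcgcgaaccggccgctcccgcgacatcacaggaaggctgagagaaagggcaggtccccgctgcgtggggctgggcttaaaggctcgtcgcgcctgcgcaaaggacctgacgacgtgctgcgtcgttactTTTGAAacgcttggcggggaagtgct
BUB1: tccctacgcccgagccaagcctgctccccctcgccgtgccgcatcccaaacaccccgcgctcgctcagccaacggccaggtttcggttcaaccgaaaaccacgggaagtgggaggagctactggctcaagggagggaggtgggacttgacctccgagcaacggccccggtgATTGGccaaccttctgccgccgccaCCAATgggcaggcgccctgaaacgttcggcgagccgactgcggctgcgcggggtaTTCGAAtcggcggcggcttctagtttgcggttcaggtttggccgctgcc
ANAPC15: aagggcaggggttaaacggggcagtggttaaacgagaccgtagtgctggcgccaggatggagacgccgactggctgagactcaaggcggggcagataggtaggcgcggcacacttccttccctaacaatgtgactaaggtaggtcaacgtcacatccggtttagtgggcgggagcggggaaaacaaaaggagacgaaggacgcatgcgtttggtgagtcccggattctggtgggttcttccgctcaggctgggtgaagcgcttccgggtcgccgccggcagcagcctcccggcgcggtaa

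CDC20 held its CHR words 178 and 65 bases before the start, and its CCAAT words 100 and 55 bases before it. In CCNB2 the CHR word began 29 bases before the start, and CCAAT words began 120, 87 and 54 bases before it, with another further out. BUB1 had CCAAT words 79 and 54 bases before the start and a CHR word at base 2 of the transcript, counted from the start. For MAD2L1 the CHR word lay at base 25 and the CCAAT word 229 bases before the start, so the words were far apart.

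A CHR word was present in 12 of the 29 windows (41.4%) and in 10.8% of the 11920 windows of tested genes. CCAAT was present in 15 (51.7%, against 36.5% of all windows) and an E2F word in 2, CDC16 and CDC23 (6.90%, against 5.23%). CHR and CCAAT words occurred together in 6 windows (20.7%, against 4.66%), those of CDC20, CCNB2, MAD2L1, BUB1, ESPL1 and FBXO5. All 6 of these genes were among the 12 genes with a window that fell, and none was among the 17 others. Single words split the genes less: CHR was in 8 of the 12 and 4 of the 17, and CCAAT in 8 and 7. Over all windows of tested genes, the median log2 fold change was −0.18 with both words and 0.03 without them. Medians with and without a word were −0.13 and 0.03 for CHR, 0.0 and 0.03 for CCAAT, and −0.16 and 0.03 for E2F. Whether the words bear on the fall was not tested. In FBXO5 and PTTG1 neighboring CCAAT words on opposite strands shared letters, 2 in each window. A match describes these letters only.

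Knockdown of SAPCD2 was accompanied by lower RNA of most checkpoint genes, of CDC20 and of the substrates. In the main fit, 11 of the 14 core subunits of the ligase did not pass the test, which does not show that they were unchanged. The number of core subunits that passed depended on the setting: it was 7 after a correction for GC content and length and 7 among protein-coding genes alone. It also changed with the library left out. The share of all tested genes was computed for the main fit only, so counts from other settings have no such share beside them. At an adjusted p under 0.05 by edgeR, 15 of the 32 (46.9%) had fallen, beside 12.5% of all tested genes that were lower. ANAPC13 was the 1 gene that was higher (3.12%, beside 12.4% of all tested genes). With the study's added limit of an absolute log2 fold change over 1, 4 genes were lower (12.5%, beside 5.16% of all tested genes), ANAPC15, MAD2L1, TTK and PTTG1. No gene was higher by that rule with edgeR or DESeq2, beside 4.69% of all tested genes, since the highest log2 fold change in the set was 0.69. The median log2 fold change was −0.40 over the set and 0.02 over all tested genes. In 26 genes (81.2%) the groups did not overlap, 23 with lower and 3 with higher sh-SAPCD2 values, beside 67.0% of all tested genes whose groups did not overlap in either direction. The count of lower genes was smaller without either sh-Scb library and larger without either sh-SAPCD2 library. It was 20 after the GC and length correction and 19 among protein-coding genes alone.

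**Figure D1:**
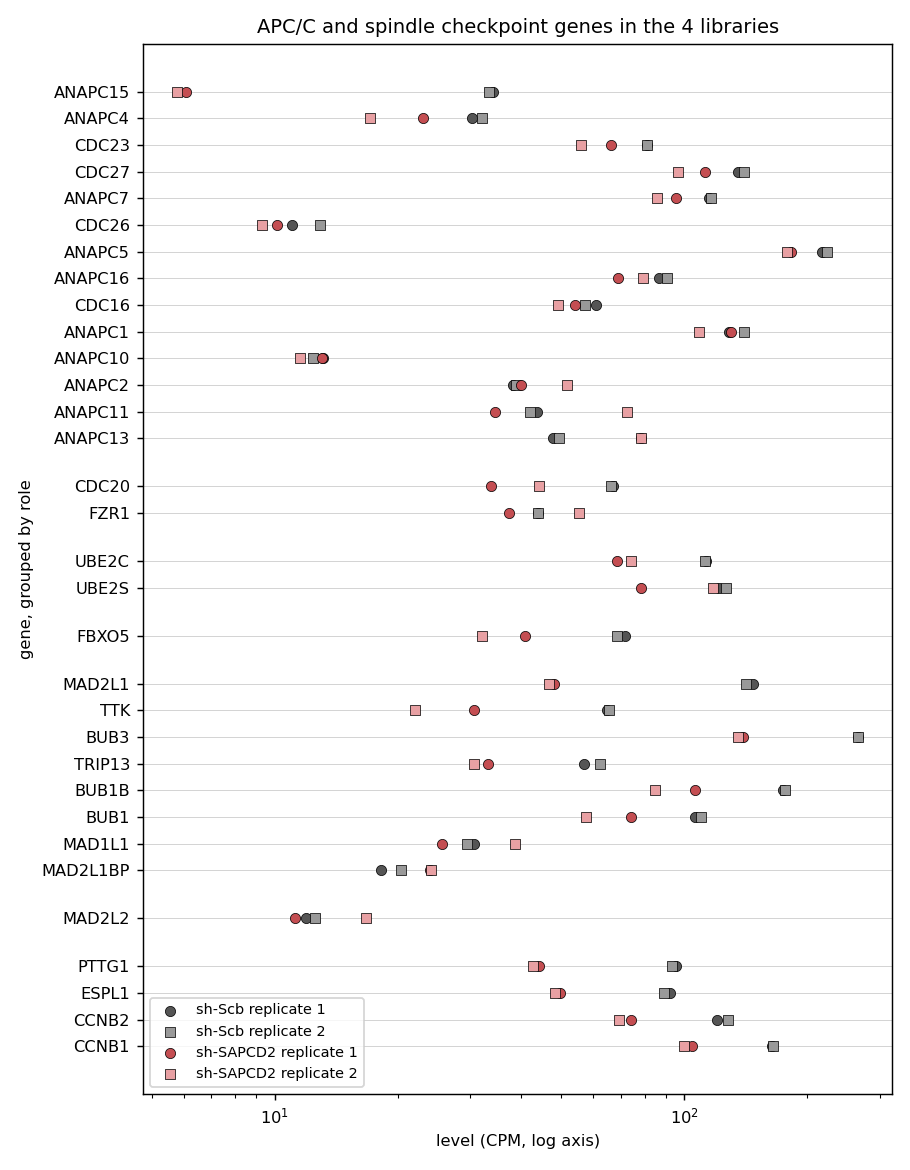
Level of each of the 32 genes (CPM, log axis) in the 4 libraries, 1 point per library, with genes grouped by role. The control points of ANAPC15 lie at 34.2 and 33.4 CPM, far from the sh-SAPCD2 points at 6.08 and 5.76 CPM, and the sh-SAPCD2 points of ANAPC11 lie on either side of its control points.

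Among the core subunits, ANAPC15 stood apart. ANAPC15 (ENSG00000110200, chr11:72106378-72112780, minus strand) encodes a small subunit that is needed for the turnover of the checkpoint complex on the APC/C. In the annotation it overlaps TOMT and LRTOMT on the other strand, which were not analyzed here, so reads from them cannot be told apart from its own. It had 946 and 921 counts in sh-Scb and 154 and 181 counts in sh-SAPCD2, equal to 34.2 and 33.4 CPM against 6.08 and 5.76 CPM. Both sh-SAPCD2 libraries were thus close to each other and far below both controls. The mean of 33.8 ± 0.546 CPM (SD, n = 2) became 5.92 ± 0.226 CPM, 17.5% of the control, a log2 fold change of −2.52 (SE 0.143, edgeR adjusted p = 0.00201). Only 97 of the 18779 tested genes had a lower log2 fold change. The value lay between −2.59 and −2.47 in all 13 alternatives and passed the threshold in each of them. Per kilobase of its canonical transcript, ANAPC15 was the third most abundant core subunit in the controls, at 42.2 CPM per kb, and the least abundant with the hairpin, at 7.39 CPM per kb.

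The hairpin was compared with the transcripts because ANAPC15 fell further than SAPCD2. The guide strand of sh-SAPCD2 #1 is shown with its seed, bases 2 to 8, in capitals.
guide: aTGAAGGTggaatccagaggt
Its full 21-base target was present in the canonical SAPCD2 transcript and in no other of 13598 tested protein-coding genes. The longest run shared by ANAPC15 and either strand of the hairpin was 9 bases, a length that 39.4% of these genes reached. The seed site ACCTTCA was found in the 3′ untranslated regions of 12.5% of these genes and of 5 of the 32 (15.6%), ANAPC1, ANAPC10, CDC23, CDC27 and MAD2L1, but not of ANAPC15. Of these 5, MAD2L1 was the 1 that fell. The median log2 fold change was −0.04 over genes with the site and 0.05 over genes without it. For the seed site of the other strand, CCAGAGG, the medians were 0.06 and 0.03, and none of the 5 genes of the set with it (ANAPC7, ANAPC10, CDC27, FZR1 and MAD2L1BP) fell. Whether the hairpin acts on any of these transcripts was not tested.

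ANAPC13, a small subunit that binds the arm of tetratricopeptide-repeat proteins, went the other way. It rose from 47.9 and 49.4 CPM to 78.6 and 78.6 CPM, with both sh-SAPCD2 libraries above both controls. The log2 fold change was 0.69 (SE 0.106, edgeR adjusted p = 0.00827), and the adjusted p was 0.132 without sh-Scb replicate 1 and 0.101 without sh-Scb replicate 2. ANAPC13 lies on chr3:134477706-134486716 (minus strand) and overlaps CEP63 on the other strand, which stood at 20.9 CPM in sh-Scb and 17.7 CPM in sh-SAPCD2 (log2 fold change −0.24).

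The third core subunit past the threshold was ANAPC4, part of the platform that carries the other subunits. Its levels were 30.3 and 32.1 CPM in sh-Scb and 23.0 and 17.1 CPM in sh-SAPCD2, a log2 fold change of −0.64 (SE 0.176, edgeR adjusted p = 0.0442). The groups were separate, but the adjusted p was 0.135 and 0.216 when sh-Scb replicate 1 or 2 was left out and 0.12 without the filter on low counts.

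Of the 14 core subunits, 2 were lower (14.3%, beside 12.5% of all tested genes), and the other 11 did not pass the test. Their log2 fold changes ran from −0.41 in CDC23 to 0.32 in ANAPC11, and the median over all 14 was −0.28. The 4 large repeat proteins of the arm that receives the coactivator gave similar values, with log2 fold changes of −0.41 in CDC23, −0.39 in CDC27, −0.36 in ANAPC7 and −0.19 in CDC16. CDC27 stood at 135.0 and 140.3 CPM in sh-Scb and at 112.7 and 96.7 CPM in sh-SAPCD2, and CDC23 at 81.0 and 81.1 CPM against 66.4 and 56.0 CPM. For both genes the groups were separate and the adjusted p lay just outside the threshold (0.0527 and 0.0602), as it did for ANAPC7 (0.0584). In DESeq2 the adjusted p was 0.0394 for CDC27 and 0.0491 for CDC23. After the GC and length correction CDC27, CDC23, ANAPC7 and ANAPC5 were past the threshold in edgeR (adjusted p = 0.00853, 0.0138, 0.0101 and 0.01), as they were among protein-coding genes alone and when either sh-SAPCD2 library was left out. ANAPC5 of the platform was the most abundant core subunit per length in the controls (85.6 CPM per kb, log2 fold change −0.29, adjusted p = 0.0701 by edgeR), and ANAPC1, the large scaffold, had a log2 fold change of −0.17 with overlapping groups. CDC26, which steadies CDC16, and ANAPC16 had log2 fold changes of −0.31 and −0.26. ANAPC10, which helps the coactivator to hold substrates, was the least abundant in the controls at 8.84 CPM per kb and had a log2 fold change of −0.06.

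Neither gene of the catalytic pair passed the test. ANAPC11, the RING subunit that engages the conjugating enzyme, stood at 43.7 and 41.9 CPM in sh-Scb and at 34.5 and 72.5 CPM in sh-SAPCD2. One sh-SAPCD2 library was below both controls and the other above both, and the log2 fold change of 0.32 (SE 0.322) became 0.75 without sh-SAPCD2 replicate 1 and −0.31 without sh-SAPCD2 replicate 2, values that passed in opposite directions (edgeR adjusted p = 0.00117 and 0.0422). ANAPC2, the cullin subunit, was at 38.1 and 38.8 CPM in sh-Scb and at 39.9 and 51.6 CPM in sh-SAPCD2 (log2 fold change 0.25), and its value was −0.0041 after correction for GC content and length and 0.42 without sh-SAPCD2 replicate 1 (edgeR adjusted p = 0.00968). ANAPC11 overlaps PCYT2 on the other strand, a gene that was higher with the hairpin (log2 fold change 1.12, edgeR adjusted p = 0.022), and strand use in the counting is not given in the sources used here. Summed over the 14 core subunits, the level was 1042.7 and 1070.7 CPM in sh-Scb and 915.7 and 900.0 CPM in sh-SAPCD2.

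Of the coactivators, CDC20 fell and FZR1 did not pass. CDC20, which drives the complex in early mitosis and is the target of the checkpoint, stood at 67.0 and 66.2 CPM in sh-Scb and at 33.7 and 44.2 CPM in sh-SAPCD2. Both sh-SAPCD2 libraries were below both controls, with a log2 fold change of −0.77 (SE 0.156, edgeR adjusted p = 0.0182), and the adjusted p was 0.0615 and 0.0555 without sh-Scb replicate 1 or 2 and 0.0619 without the filter on low counts. FZR1, the coactivator of late mitosis and G1 also called CDH1, was at 43.9 and 44.0 CPM in sh-Scb and at 37.3 and 55.3 CPM in sh-SAPCD2, on both sides of the controls (log2 fold change 0.08). Its value was 0.32 without sh-SAPCD2 replicate 1 (edgeR adjusted p = 0.0166), −0.24 without sh-SAPCD2 replicate 2 and −0.22 after the GC and length correction. Per kilobase, the ratio of CDC20 to FZR1 was 4.79 and 4.72 in sh-Scb and 2.84 and 2.51 in sh-SAPCD2. The ratio was lower in both sh-SAPCD2 libraries, and the difference was −0.83 on the log2 scale (exact permutation test, two-sided, p = 0.333 before and after adjustment over 3 ratios, the smallest p that 2 against 2 libraries allow).

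Of the conjugating enzymes, UBE2C, which places the first ubiquitins, stood at 112.9 and 112.6 CPM in sh-Scb and at 68.6 and 74.0 CPM in sh-SAPCD2. Its log2 fold change was −0.66 (SE 0.104, edgeR adjusted p = 0.00887), and the adjusted p was 0.108 and 0.102 when sh-Scb replicate 1 or 2 was left out. UBE2S, which lengthens the chains, was at 121.7 and 126.6 CPM in sh-Scb and at 78.3 and 117.6 CPM in sh-SAPCD2, a log2 fold change of −0.34 (SE 0.193) that did not pass. The 2 sh-SAPCD2 libraries differed more from each other than replicate 2 did from the controls, and the value was −0.08 without sh-SAPCD2 replicate 1 and −0.66 without sh-SAPCD2 replicate 2 (edgeR adjusted p = 0.197 and 0.000856). After the GC and length correction UBE2S was past the threshold, at −0.43 (edgeR adjusted p = 0.024). UBE2S overlaps RPL28 on the other strand, at 205.6 CPM in sh-Scb and 264.4 CPM in sh-SAPCD2. The ratio of UBE2C to UBE2S per kilobase was 3.06 and 2.93 in sh-Scb and 2.89 and 2.07 in sh-SAPCD2, a log2 difference of −0.29 (exact permutation test, p = 0.333), which was −0.53 without sh-SAPCD2 replicate 1 and −0.05 without sh-SAPCD2 replicate 2.

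FBXO5, known as EMI1, blocks the APC/C in S and G2 phase. It stood at 71.7 and 68.5 CPM in sh-Scb and at 40.8 and 32.1 CPM in sh-SAPCD2, with separate groups. The log2 fold change was −0.94 (SE 0.148, edgeR adjusted p = 0.00896), and it passed the threshold in all 13 alternatives, with values from −1.13 to −0.78.

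**Figure D2:**
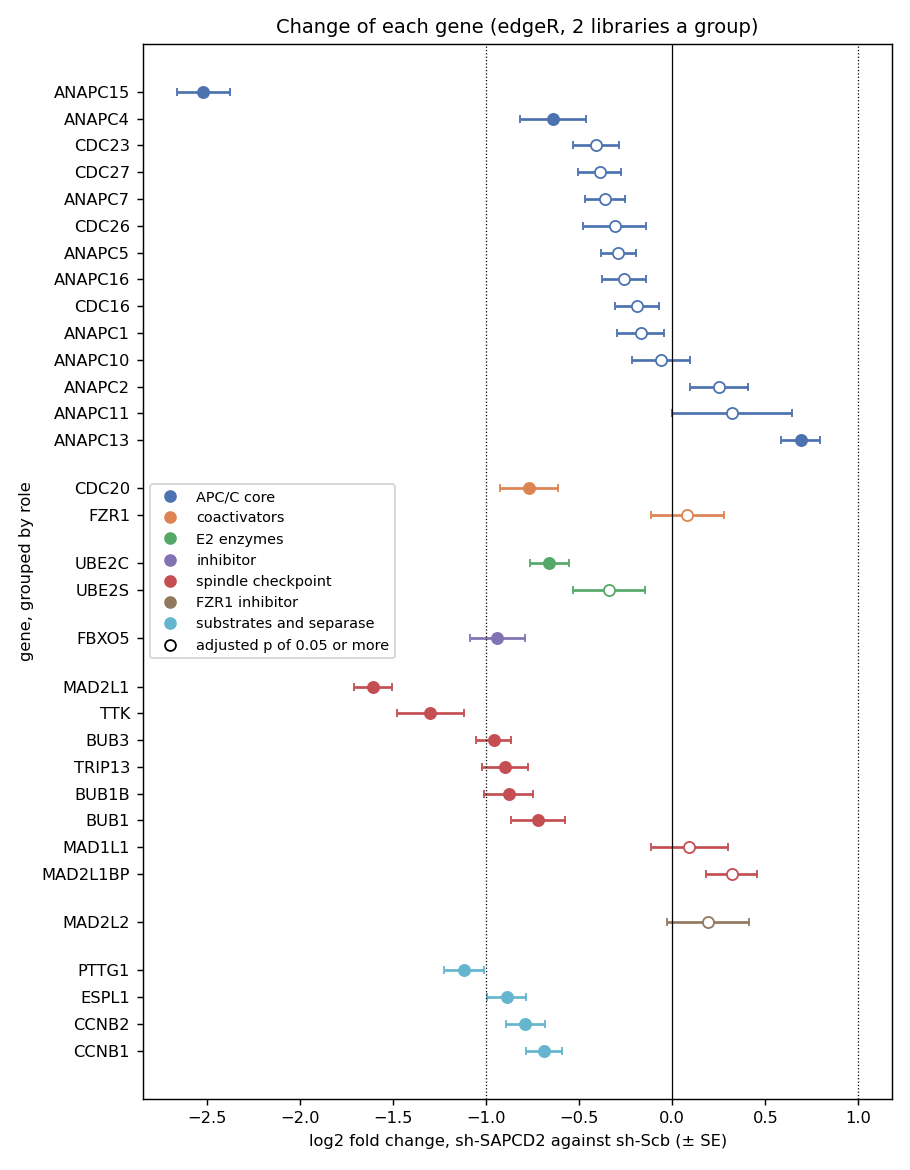
Log2 fold change of each gene, sh-SAPCD2 against sh-Scb, with a standard error derived from the edgeR F statistic, grouped and colored by role. Filled points passed an adjusted p of 0.05, and the dotted lines mark −1 and 1. ANAPC15 (−2.52) and ANAPC13 (0.69) bound the set, and the 6 called checkpoint genes lie between −1.61 and −0.72.

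Of the 8 checkpoint genes, 6 fell (75.0%, beside 12.5% of all tested genes), 2 did not pass, and the median log2 fold change was −0.89, beside 0.02 over all tested genes. MAD2L1 (chr4:120055623-120066858, minus strand) encodes MAD2, the protein that is converted at unattached kinetochores and captures CDC20. Its levels were 147.0 and 141.9 CPM in sh-Scb and 48.0 and 46.7 CPM in sh-SAPCD2. The groups were far apart, the mean falling to 32.8% of the control, with a log2 fold change of −1.61 (SE 0.102, edgeR adjusted p = 0.00201). Its promoter is among those printed above, and its 3′ untranslated region holds the hairpin's seed site.

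TTK, or MPS1, is the kinase that starts checkpoint signaling at the kinetochore. It stood at 64.6 and 65.5 CPM in sh-Scb and at 30.7 and 22.0 CPM in sh-SAPCD2, with a log2 fold change of −1.30 (SE 0.178, edgeR adjusted p = 0.00608). BUB1, the kinase that recruits the other checkpoint proteins, was at 106.2 and 109.6 CPM in sh-Scb and at 74.0 and 57.4 CPM in sh-SAPCD2, with a log2 fold change of −0.72 (adjusted p = 0.0182 by edgeR). In both kinases the sh-SAPCD2 libraries lay below the controls and replicate 2 was the lower one. For BUB1 the adjusted p was 0.0608 and 0.0847 without sh-Scb replicate 1 or 2 and 0.0632 without the filter on low counts.

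BUB1B and BUB3 form the checkpoint complex with MAD2 and CDC20. BUB1B, or BUBR1, was at 174.0 and 176.7 CPM in sh-Scb and at 106.2 and 84.9 CPM in sh-SAPCD2 (log2 fold change −0.88). BUB3, the protein that docks BUB1 and BUBR1 at the kinetochore, was at 266.1 and 266.3 CPM in sh-Scb and at 139.4 and 135.0 CPM in sh-SAPCD2 (log2 fold change −0.96). Both passed the test (edgeR adjusted p = 0.00795 and 0.00322) and did so in all 13 alternatives, and with MAD2L1 and CDC20 every protein of the checkpoint complex had lower RNA in both sh-SAPCD2 libraries than in either control.

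Of the 2 genes whose products take the checkpoint complex apart, 1 fell and 1 did not pass. TRIP13, the ATPase that opens MAD2, stood at 56.9 and 62.4 CPM in sh-Scb and at 33.2 and 30.6 CPM in sh-SAPCD2, with a log2 fold change of −0.90 (SE 0.124, edgeR adjusted p = 0.00613). MAD2L1BP, the adaptor that brings MAD2 to TRIP13, was at 18.2 and 20.3 CPM in sh-Scb and at 23.9 and 24.1 CPM in sh-SAPCD2. The sh-SAPCD2 values of MAD2L1BP were above both controls, but the log2 fold change of 0.32 (SE 0.137) did not pass (edgeR adjusted p = 0.142), and it passed after the GC and length correction (0.34, adjusted p = 0.0382). MAD1L1, which anchors MAD2 at the kinetochore, was at 30.7 and 29.5 CPM in sh-Scb and at 25.6 and 38.6 CPM in sh-SAPCD2, a log2 fold change of 0.09 that was 0.35 without sh-SAPCD2 replicate 1 (edgeR adjusted p = 0.0286), −0.23 without sh-SAPCD2 replicate 2 and −0.14 after that correction.

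Per kilobase, the ratio of MAD2L1 to MAD2L1BP was 1.96 and 1.70 in sh-Scb and 0.488 and 0.471 in sh-SAPCD2. The turn from above 1 to below 1 rests on the annotated transcript lengths of 5227 and 1269 bases. Which transcript forms were expressed was not examined. In CPM, MAD2L1 stayed above MAD2L1BP in sh-SAPCD2 (48.0 and 46.7 against 23.9 and 24.1). The log2 difference of the ratio between the groups does not depend on these lengths. It was −1.93 (exact permutation test, two-sided, p = 0.333), and it ran from −2.03 to −1.82 when each library was left out. MAD2L2, a relative of MAD2 that inhibits FZR1 and also serves in translesion DNA synthesis, was at 11.9 and 12.5 CPM in sh-Scb and at 11.2 and 16.7 CPM in sh-SAPCD2 (log2 fold change 0.19, groups overlapping). Its value was 0.44 without sh-SAPCD2 replicate 1 (edgeR adjusted p = 0.0384) and −0.13 without sh-SAPCD2 replicate 2.

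All 4 genes for substrates and separase fell, beside 12.5% of all tested genes, with a median log2 fold change of −0.84. PTTG1 encodes securin, which restrains separase until the APC/C removes it. Its levels were 95.5 and 93.1 CPM in sh-Scb and 44.1 and 42.8 CPM in sh-SAPCD2, with a log2 fold change of −1.12 (SE 0.106, edgeR adjusted p = 0.00313). ESPL1, separase itself, was at 92.1 and 89.3 CPM in sh-Scb and at 49.8 and 48.3 CPM in sh-SAPCD2, a log2 fold change of −0.89 (SE 0.105, edgeR adjusted p = 0.00456). Inhibitor and protease thus both stood near a lower level in both sh-SAPCD2 libraries, and both passed in all 13 alternatives.

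Of the B-type cyclins, which activate CDK1 for mitosis, CCNB1 stood at 163.9 and 164.6 CPM in sh-Scb and at 104.5 and 99.6 CPM in sh-SAPCD2 (log2 fold change −0.69, edgeR adjusted p = 0.00659). CCNB2 was at 120.4 and 128.1 CPM in sh-Scb and at 74.0 and 69.4 CPM in sh-SAPCD2 (log2 fold change −0.79, edgeR adjusted p = 0.00581). The groups were separate in both. Without a sh-Scb library the adjusted p of CCNB1 was 0.0805 or 0.0836, and that of CCNB2 was 0.0556 without sh-Scb replicate 2.

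The 2 sh-SAPCD2 libraries differed from each other in a way that followed the GC content of the transcripts. Among the 32 genes, the log2 difference between sh-SAPCD2 replicates 2 and 1 ran from −0.48 in TTK to 1.07 in ANAPC11, with Pearson's r = 0.79 against the GC content of the canonical transcript, a description over genes that share their libraries and are not independent. Of the 8 genes above 55% GC, 7 were higher in replicate 2, and of the 16 genes below 45% GC, 2 were. Between the sh-Scb libraries the same difference ran from −0.09 to 0.22 with r = −0.081. Over 17467 tested genes with an annotation, r was 0.42 between the sh-SAPCD2 libraries and −0.021 between the sh-Scb libraries. SAPCD2, with 66.5% GC, was also higher in replicate 2, by 0.569 on the log2 scale. After the GC and length correction the median was −0.16 over the core and −0.77 over the checkpoint genes, beside −0.28 and −0.89 in the main fit. How much of the results this difference accounts for was not tested. FZR1, MAD1L1, MAD2L2, ANAPC11, ANAPC2 and ANAPC10 had log2 fold changes whose sign turned in at least 1 of the 13 alternatives.

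**Figure D3:**
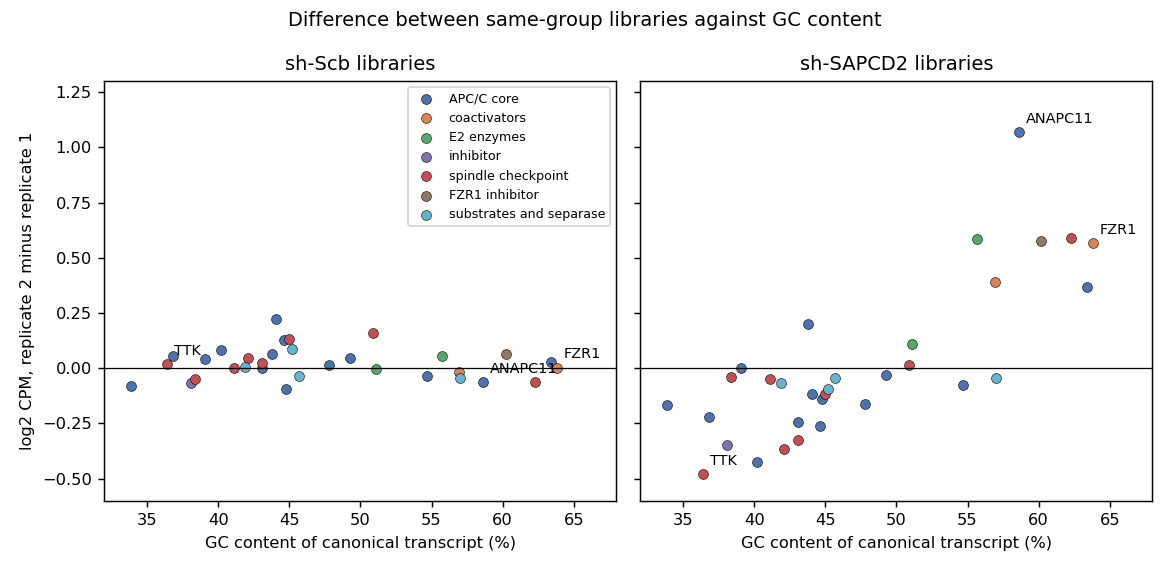
Log2 CPM of replicate 2 minus replicate 1 against the GC content (%) of the canonical transcript for the 32 genes, in the sh-Scb libraries (left) and the sh-SAPCD2 libraries (right), colored by role. The sh-Scb points stay between −0.09 and 0.22, and the sh-SAPCD2 points climb from −0.48 (TTK) to 1.07 (ANAPC11).

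Lists of further genes of the pathway gave values on the same scale. These lists were chosen with earlier results of these data known, so their shares are a description and not independent support. Of 30 other substrates of the APC/C, all of them tested, 27 were lower (90.0%, beside 12.5% of all tested genes) and 3 did not pass (AURKA, NEK2 and GMNN), with a median log2 fold change of −0.84 and all values below 0. CDCA5, or sororin, which protects cohesion until anaphase, had a log2 fold change of −1.62, CDC6 of the origin licensing machinery −1.44, and HMMR of the spindle −1.76, the 3 genes with the smallest p. The count of lower substrates was smaller when either sh-Scb library was left out and larger when either sh-SAPCD2 library was left out.

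Of 15 kinetochore proteins on which the checkpoint docks, 14 were lower (93.3%, beside the same 12.5%) and PMF1 did not pass, with a median log2 fold change of −0.98. ZWINT, which links the KNL1 platform to the dynein adaptor complex, had a log2 fold change of −1.08, KNTC1 of that complex −1.36, and DSN1 of the inner platform −1.09. Of 12 other regulators of the APC/C, 2 were lower (16.7%, near the 12.5% of all tested genes) and 10 did not pass, with a median log2 fold change of −0.28. The 2 were CDK1, whose kinase activity primes the complex for CDC20, from 224.3 and 224.8 CPM to 115.3 and 100.2 CPM, and FBXO43, the relative of FBXO5 that is known from eggs, from 11.6 and 13.1 CPM to 4.10 and 3.94 CPM. UBE2D2, a conjugating enzyme that can also serve the complex, had a log2 fold change of −0.40 (edgeR adjusted p = 0.052). The count of lower regulators was larger when either sh-SAPCD2 library was left out, and the share of all tested genes in those fits was not computed.

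As a ligase of similar make that works mainly outside mitosis, the SCF complex was set beside the APC/C. Of its 13 genes, 2 were lower (15.4%, beside 12.5% of all tested genes), 3 were higher (23.1%, beside 12.4%) and 8 did not pass, with a median log2 fold change of 0.13. The 13 do not include SKP2, an F-box protein of this ligase. It was counted with the other APC/C substrates and was lower (log2 fold change −0.55, edgeR adjusted p = 0.0129). CCNF, the F-box protein of G2, had a log2 fold change of −0.94 and CKS1B, the cofactor of SKP2, −0.83, while FBXW7, the F-box protein that recognizes MYC proteins and cyclin E, had 0.79. The scaffold CUL1 had a log2 fold change of 0.24 and the adaptor SKP1 0.13, and neither passed. More of the 13 were lower when either sh-SAPCD2 library was left out, and the share of all tested genes in those fits was not computed.

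**Figure D4:**
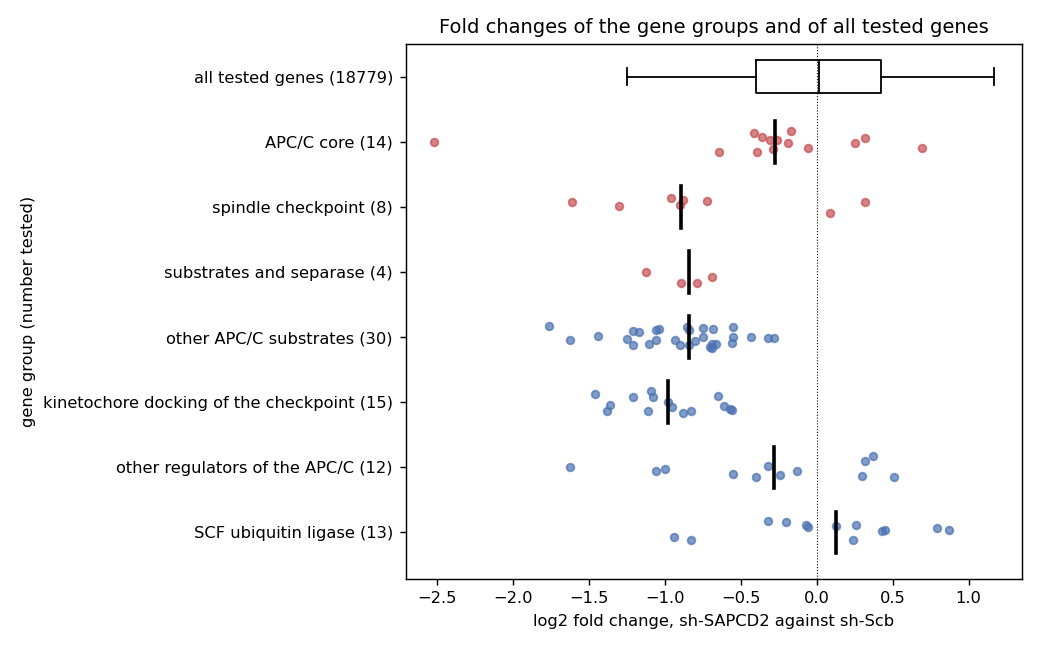
Log2 fold change, sh-SAPCD2 against sh-Scb, of the genes in each group, 1 point per gene, with a bar at the median and the number tested in parentheses. For all tested genes the box marks the quartiles and the whiskers the 5th and 95th percentiles. The median of the APC/C core lies at −0.28, that of the spindle checkpoint at −0.89 and that of the SCF genes at 0.13.

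Reads of near-identical copies and of overlapping genes may be shared with the genes above. The table held 26 annotated copies of the 32 genes, 19 of them with under 10 counts in every library. The largest counts were in ANAPC1P2 (439 to 597), ANAPC1P4 (231 to 399) and CDC26P1 (43 to 74), at most 17.5%, 11.7% and 25.3% of the parent's count, and none of the 3 passed the test. UBE2CP5 (24 to 57 counts), UBE2SP1 (16 to 43), UBE2SP2 (2 to 13) and CDC20P1 (1 to 12) were at most 2.99% of their parents, and how reads with several matches were shared is not given in the sources used here. In the table, 13 of the 32 genes overlap another gene with at least 10 counts, among them CDC23 with KIF20A on the other strand, which fell (log2 fold change −1.25). ANAPC10, at a mean of 12.8 CPM in sh-Scb, overlaps ABCE1 at 227.7 CPM on the other strand. CDC26, at 12.0 CPM, overlaps SLC31A1 on the other strand, which rose from 83.7 to 149.7 CPM (log2 fold change 0.84, edgeR adjusted p = 0.00456). Of the called genes, ANAPC13 and BUB1B overlapped a gene with at least 10 counts, PAK6 for BUB1B at 1.14 CPM in sh-Scb and 0.811 CPM in sh-SAPCD2. These counts cover genes with a row in the table.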

How the data were processed

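Total RNA of SK-N-BE(2) cells with sh-Scb or sh-SAPCD2 was sequenced, 2 libraries per group, grouped by the condition in the labels. The authors aligned reads to hg38 with HISAT2 2.2.0, assembled transcripts and estimated abundance with StringTie, and deposited raw whole-number counts per Ensembl gene, without scaling. Strand use in counting and the treatment of reads with several matches are not given in the sources used here. Counts were scaled by TMM and tested with edgeR 4.0.16 (quasi-likelihood, R 4.3.3) after filterByExpr (minimum count 10, minimum total 15), with Benjamini-Hochberg adjustment over 18779 genes. The biological coefficient of variation was 15.4%. Each SE is the absolute log2 fold change divided by the square root of the edgeR F statistic. Totals of 25347900 to 31850997 counts set the precision. Positions, GC content and canonical transcript length came from GENCODE 44, which held 56105 of the 64252 identifiers. Ratios of gene pairs were tested by exact permutation with scipy 1.17.1, and Python 3.11.15, pandas 2.3.3 and matplotlib 3.10.9 were used for tables and figures. The code was tested on simulated data.

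The genes and lists were chosen with earlier results of these data known. Named are all 32 genes, SAPCD2, at most the 3 genes of a list with the smallest p, copies with at least 10 counts and overlapping genes. The uncalled genes of the lists, CUL1, SKP1, SKP2 and the markers DCN and PTPRC were named after their values were seen. Each count and median was computed again with DESeq2 1.42.0, with edgeR on DESeq2's size factors or on unscaled totals, with no low-count filter or with genes averaging 1 CPM or more, with the replicate number as a block, after loess fits that removed GC content and length (span 0.3) with and without that block, on protein-coding genes alone, and with each library left out. A search of protein sequences for degrons was not run.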

Additional observations from a re-analysis of the deposited data

How the results depend on the processing

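Of the 32 genes, 9 passed the threshold in all 13 alternatives, ANAPC15, FBXO5, MAD2L1, TRIP13, BUB1B, BUB3, TTK, PTTG1 and ESPL1, and 6 changed sign in at least 1. After the GC content and length correction the signs of ANAPC2 (−0.0041), ANAPC10 (0.11), FZR1 (−0.22) and MAD1L1 (−0.14) turned, and with the replicate block added they were −0.0043, 0.11, −0.23 and −0.15. The medians of the set, of the core and of the checkpoint genes were −0.36, −0.16 and −0.77 with that correction and −0.37, −0.17 and −0.77 with the block as well, and 2 genes were higher in either fit. With protein-coding genes only, the median of the set was −0.43. Without the filter on low counts, SAPCD2 kept −0.91 with an edgeR adjusted p of 0.0749 (4.2e-06 to 0.0749 over its alternatives), and 1 SCF gene was lower. DESeq2 called 4 of the other regulators lower. The labels do not say whether the replicate numbers pair the samples. The correlation of same-numbered deviations was −0.019. It compares a single difference between libraries in each group, so it cannot exclude a shared culture or batch. A replicate block left 15 lower genes in the set. It called 4 of the other regulators lower, with and without the GC and length correction.

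With each library left out in turn, 9 to 22 genes of the set were lower and 0 to 6 higher, as were 15 to 30 of the substrates, 2 to 7 of the other regulators and 2 to 4 of the SCF genes in the lower direction. The median in these fits ran from −0.53 to −0.39 over the set and from −0.98 to −0.78 over the checkpoint genes. Over the core subunits the median ran from −0.31 to −0.23. The sign turned without sh-SAPCD2 replicate 2 in 5 genes, whose lowest and highest values were −0.15 and 0.03 (ANAPC10), −0.31 and 0.75 (ANAPC11), −0.24 and 0.32 (FZR1), −0.23 and 0.35 (MAD1L1), and −0.13 and 0.44 (MAD2L2). The cause of these changes was not tested. With 2 libraries per group, an exact test of a single value cannot go below 0.333.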
